A study of Mus musculus with 12 samples.

Results

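The genes described here are 33 genes of cholesterol and fatty acid synthesis, measured by RNA sequencing in 12 libraries of 4T1, a mammary carcinoma line from mouse. They were taken by gene name, with no threshold on their values, and all 33 were found among the 26244 genes that at least 1 of the count tables lists. They fall into a sterol branch of 21 genes and a fatty acid branch of 12 genes, which are reported apart. The fatty acid branch runs from Acly to Srebf1 in the list of names and holds the transcription factor Srebf1, and the sterol branch holds its relative Srebf2.

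Cholesterol is built from acetyl-CoA through mevalonate, isoprenoids, squalene and lanosterol, and fatty acids are built from the same acetyl-CoA through malonyl-CoA. Both branches are controlled by SREBP transcription factors, which are held in the endoplasmic reticulum by Insig proteins when sterols are plentiful and are released, carried to the Golgi and cut when sterols are scarce. The SREBP encoded by Srebf2 acts mainly on sterol genes, and the one encoded by Srebf1 mainly on fatty acid genes, with overlap between them.

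In the in vivo setting, Balb/c mice labelled old or young were given 5000 4T1 cells that expressed mNeonGreen, a green fluorescent protein, through the tail vein. After 4 weeks 4T1 cells were sorted from the lungs, with 100000 cells for each sample, and 3 libraries were made for each age. In the culture setting, 4T1 cells first grew in medium with serum and were then exposed for 72 h to 25% interstitial fluid extract (IFE) in medium without serum. The extract came from lungs of old or of young mice that carried 4T1 metastases, and again 3 libraries were made for each age. The lungs behind both settings thus came from mice that carried 4T1 cells, and both kinds of culture lacked serum during treatment. The culture libraries also carry the tag shNT in their titles, which the protocols do not explain. Ages are given as old and young only. The sources do not say whether replicates came from separate mice, extracts or cultures, so p-values measure the spread between these libraries, which may be technical. The series title gives the purpose of the comparison, which is to use IFE as a culture model of cancer in old age.

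Libraries held 11679046 to 15053144 counts in vivo and 12299004 to 18129164 counts in culture. Levels are given as CPM, the counts divided by the scaled library size. The labelled cell type was checked with markers. The summed level of 10 epithelial carcinoma markers was 4489 to 4581 CPM in old mice and 3375 to 3519 CPM in young mice. Markers of macrophages and monocytes, 12 genes in all, summed to 94.24 to 97.68 CPM in old mice and 826.9 to 842.8 CPM in young mice, and all 11 that could be tested were lower in old mice. Marco, whose counts were too low to test, went the other way, with a mean of 0.5851 CPM in old mice and 0.05023 CPM in young mice. Fibroblast and pericyte markers summed to 421.5 to 431.0 CPM in old mice and 332.9 to 356.6 CPM in young mice, and alveolar type II markers to 269.4 to 277.1 CPM in old mice and 197.0 to 211.6 CPM in young mice. Endothelial markers summed to 27.3 to 30.12 CPM in old mice and 19.67 to 23.19 CPM in young mice, neutrophil markers to 47.99 to 49.23 CPM in old mice and 46.64 to 51.82 CPM in young mice, and adipocyte markers to 0.7314 to 1.111 CPM in old mice and 0.226 to 0.7268 CPM in young mice. In culture the macrophage markers summed to 4.898 to 5.821 CPM with old IFE and 4.111 to 5.29 CPM with young IFE. The alveolar type II markers summed to 154.0 to 160.8 CPM with old IFE and 140.6 to 149.9 CPM with young IFE. Most of this was Abca3, at 124.1 CPM with old IFE and 110.3 CPM with young IFE, so that sum does not measure alveolar cells alone. The median log2 fold change of the alveolar type II markers in vivo, old over young, was 1.39. That of the carcinoma markers was 0.51, against 0.36 in the sterol branch described below. Of these 10 markers 8 were higher and 1 lower in old mice at an edgeR adjusted p under 0.05. Among all genes tested the shares were 19.6% and 20.4%. The part of other cells in the in vivo results below was not tested, and in bulk RNA fewer cells of a type and less RNA per cell cannot be told apart.

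Promoter sequence was examined because the SREBP proteins and their partner NF-Y bind short motifs near the start of these genes. RefSeq windows of GRCm38.p6, each with 250 bases before and 50 bases after the gene start, were matched for 26 of the 33 genes. No window was matched for Fdps, Fdft1, Sqle, Stard4, Scd1, Scd2 and Fads1. Shown are Hmgcs1 and Insig1, which had the lowest p-values of the sterol branch in vivo, and Elovl6, which had the lowest p-value of the fatty acid branch and was lower in old mice. Capitals mark the sterol regulatory element TCACNCCAC and the NF-Y motif CCAAT, which reads ATTGG where it lies on the other strand.
Hmgcs1, chr13:119690101-119690400, plus strand: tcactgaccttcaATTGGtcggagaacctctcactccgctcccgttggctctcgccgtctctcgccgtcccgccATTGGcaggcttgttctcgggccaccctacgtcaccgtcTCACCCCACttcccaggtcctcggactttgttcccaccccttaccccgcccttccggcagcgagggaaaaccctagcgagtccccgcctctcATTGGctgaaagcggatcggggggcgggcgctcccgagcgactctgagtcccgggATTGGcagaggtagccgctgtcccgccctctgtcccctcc
Insig1, chr5:28071162-28071461, plus strand: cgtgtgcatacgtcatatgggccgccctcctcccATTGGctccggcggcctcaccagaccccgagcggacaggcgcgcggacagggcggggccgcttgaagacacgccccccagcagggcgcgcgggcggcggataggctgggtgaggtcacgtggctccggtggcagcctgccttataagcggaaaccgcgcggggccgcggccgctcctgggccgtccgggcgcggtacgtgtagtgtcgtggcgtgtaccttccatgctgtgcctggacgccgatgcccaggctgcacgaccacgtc
Elovl6, chr3:129532136-129532435, plus strand: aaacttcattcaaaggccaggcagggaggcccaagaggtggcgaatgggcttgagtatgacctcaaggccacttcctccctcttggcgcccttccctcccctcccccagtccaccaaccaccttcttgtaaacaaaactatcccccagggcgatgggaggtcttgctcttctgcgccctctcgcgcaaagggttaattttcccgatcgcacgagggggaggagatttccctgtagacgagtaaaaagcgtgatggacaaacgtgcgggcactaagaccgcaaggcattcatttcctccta

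The Hmgcs1 window held 1 match to the sterol regulatory element and 4 to CCAAT, the Insig1 window held 0 and 1, and the Elovl6 window held neither motif. Counting both strands, CCAAT was found for 16 of 17 genes of the sterol branch (94.1%) and 6 of 9 genes of the fatty acid branch (66.7%), against 11096 of 27025 genes with a window (41.1%). The GC box GGGCGG, which Sp1 binds, was found for 16 of 17 genes of the sterol branch (94.1%) and 5 of 9 genes of the fatty acid branch (55.6%), against 38.2% of all genes. The element TCACNCCAC was found for Hmgcs1 alone among the members with a window, against 388 of all 27025 genes (1.44%). Matches of different motifs shared bases in 0 of the 26 genes with a window, and a match is a string of letters and not a measured binding site.

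The first comparison asked how the genes differed between 4T1 cells from lungs of old and of young mice. In the sterol branch 14 of 21 genes were higher in old mice and 1 was lower, where a call is an adjusted p under 0.05 in edgeR's quasi-likelihood test across 14096 genes. Of all genes tested 40.0% were called, 19.6% higher and 20.4% lower. Tested against a fold of 1.2, 7 sterol genes were higher and 0 lower, against 597 and 1256 of all 14096 genes. The median log2 fold change of the branch, old over young, was 0.36, against 0.00188 for all genes tested, and 18 of the 21 genes had a positive value. In 16 genes every old library lay above every young library and in 1 gene every old library lay below, a separation found in 23.5% and 24.2% of all genes. The summed level of the branch was 1302 to 1327 CPM in old mice and 1051 to 1057 CPM in young mice.

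**Figure D1:**
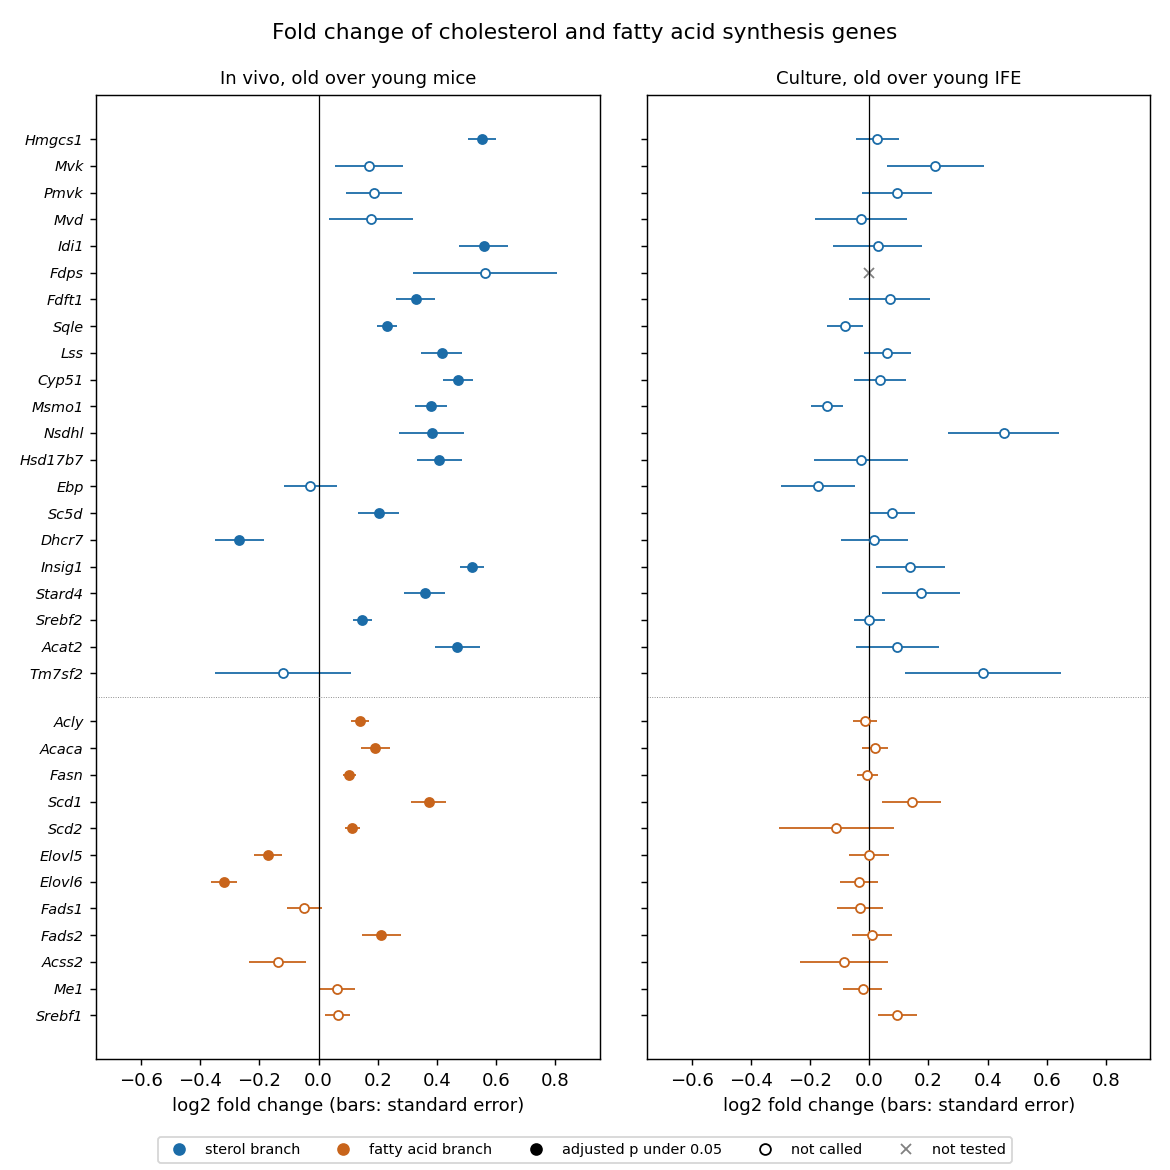
Log2 fold change of each gene, old over young, in vivo (left) and in culture with IFE (right), in the order of the list of names, with the standard error as bars. Of the 21 sterol genes 14 have a filled point to the right of 0 in vivo, and no point is filled in culture, where Fdps was not tested because of its low counts.

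The early steps make mevalonate and the isoprenoid units. Hmgcs1 (ENSMUSG00000093930, chromosome 13), the cytosolic synthase that makes HMG-CoA, had 133.1, 117.8 and 115.6 CPM in old mice and 81.68, 84.49 and 83.39 CPM in young mice. All old libraries were above all young ones, and the log2 fold change was 0.55 ± 0.05 (SE, n = 3 each; edgeR adjusted p = 1.36e-18). Idi1, which interconverts the isoprenoid units, had 36.58, 40.49 and 33.8 CPM in old mice and 24.26, 25.54 and 25.64 CPM in young mice. The groups did not overlap for Idi1 either, with a log2 fold change of 0.56 ± 0.08 (edgeR adjusted p = 1.23e-08). Acat2, the cytosolic thiolase that joins acetyl-CoA units, averaged 44.6 ± 0.36 CPM in old mice and 32.17 ± 3.97 CPM in young mice (SD, n = 3 each; edgeR adjusted p = 1.5e-07). The genes between Hmgcs1 and Idi1 did not pass the test. Mvk, Pmvk and Mvd, which phosphorylate and decarboxylate mevalonate, had log2 fold changes of 0.17, 0.19 and 0.18, with edgeR adjusted p of 0.25, 0.106 and 0.342. Without young replicate 1 Pmvk was called (log2 fold change 0.26, edgeR adjusted p = 0.0448), and the value of Mvd ran from 0.019 without young replicate 2 to 0.338 without young replicate 1. Fdps, the farnesyl diphosphate synthase, was barely counted, with 4.476, 5.626 and 2.763 CPM in old mice and 3.014, 3.056 and 2.709 CPM in young mice. Old replicate 3 lay among the young libraries, and the edgeR adjusted p for Fdps was 0.057. Leaving out 1 library moved the log2 fold change of Fdps between 0.30, without old replicate 2 (adjusted p = 0.438), and 0.80, without old replicate 3 (adjusted p = 0.00737).

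The squalene and lanosterol steps were higher in old mice as far as they were called. Sqle, the squalene epoxidase that is a rate-limiting enzyme of the later pathway, had 190.7, 197.9 and 191.5 CPM in old mice and 165.2, 163.5 and 165.6 CPM in young mice. The groups were well apart for Sqle, although the change was modest, with a log2 fold change of 0.23 ± 0.03 (edgeR adjusted p = 1.94e-08). Cyp51, the lanosterol demethylase, had 98.63, 106.7 and 99.63 CPM in old mice and 67.29, 77.36 and 75.26 CPM in young mice. Every old library exceeded every young one, with a log2 fold change of 0.47 ± 0.05 (edgeR adjusted p = 4.32e-14). Msmo1, which removes the methyl groups at carbon 4 together with Nsdhl and Hsd17b7, had 83.31, 82.1 and 83.37 CPM in old mice and 67.59, 66.15 and 57.68 CPM in young mice. Young replicate 3 was the lowest of the 6 libraries for Msmo1, the groups did not overlap, and the log2 fold change was 0.38 ± 0.05 (edgeR adjusted p = 3.25e-09). Nsdhl, Hsd17b7, Lss, the lanosterol synthase, and Fdft1, the squalene synthase, were also called higher, with log2 fold changes of 0.38, 0.41, 0.42 and 0.33. Fdft1 shares 774 bases with Ctsb on the opposite strand, and since the strand setting of the libraries is unknown its reads may be mixed. Ctsb, a lysosomal protease, was lower in old mice, at 635.6 CPM against 1033 CPM in young mice.

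The last steps did not move together. Sc5d, a desaturase of the sterol ring, averaged 46.6 ± 2.9 CPM in old mice and 40.6 ± 2.03 CPM in young mice (SD, n = 3 each; edgeR adjusted p = 0.0143). Dhcr7, which makes cholesterol in the final reduction of one route, was the 1 sterol gene called lower, with 34.08, 25.91 and 29.9 CPM in old mice and 35.34, 38.04 and 34.36 CPM in young mice. All old libraries lay below all young ones, old replicate 2 was the lowest, and the log2 fold change was -0.27 ± 0.08 (edgeR adjusted p = 0.00552). The call for Dhcr7 was lost without old replicate 2 (adjusted p = 0.135), without young replicate 2 (adjusted p = 0.0539) and in limma on log2(FPKM + 0.1) (adjusted p = 0.094). The call for Sc5d was lost without old replicate 2 (adjusted p = 0.135), without young replicate 2 (adjusted p = 0.0524), without young replicate 3 (adjusted p = 0.0802) and in limma on log2(FPKM + 0.1) (adjusted p = 0.0606). Ebp, a sterol isomerase, and Tm7sf2, a sterol reductase, did not pass, with log2 fold changes of -0.03 and -0.12 and edgeR adjusted p of 0.836 and 0.715.

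Insig1 and Srebf2, the regulators listed in the branch, were higher in old mice. The 12 further genes of the SREBP system, described below, went both ways. Insig1 (ENSMUSG00000045294, chromosome 5), the endoplasmic reticulum anchor that holds SREBP back and is itself an SREBP target, had 142.7, 147.9 and 138.9 CPM in old mice and 99.69 to 100.4 CPM in the 3 libraries of young mice. It had the lowest p-value of the branch, with a log2 fold change of 0.52 ± 0.04 (edgeR adjusted p = 6.02e-20) and no overlap between the groups. Srebf2 had 205.5, 211.3 and 213.1 CPM in old mice and 190.8, 185.7 and 192.0 CPM in young mice. The groups for Srebf2 did not overlap, but the log2 fold change was small, 0.15 ± 0.03 (edgeR adjusted p = 0.000129). Stard4, a carrier of cholesterol in the cytosol, averaged 48.62 ± 1.39 CPM in old mice and 37.97 ± 2.36 CPM in young mice (SD, n = 3 each; edgeR adjusted p = 1.04e-05).

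**Figure D2:**
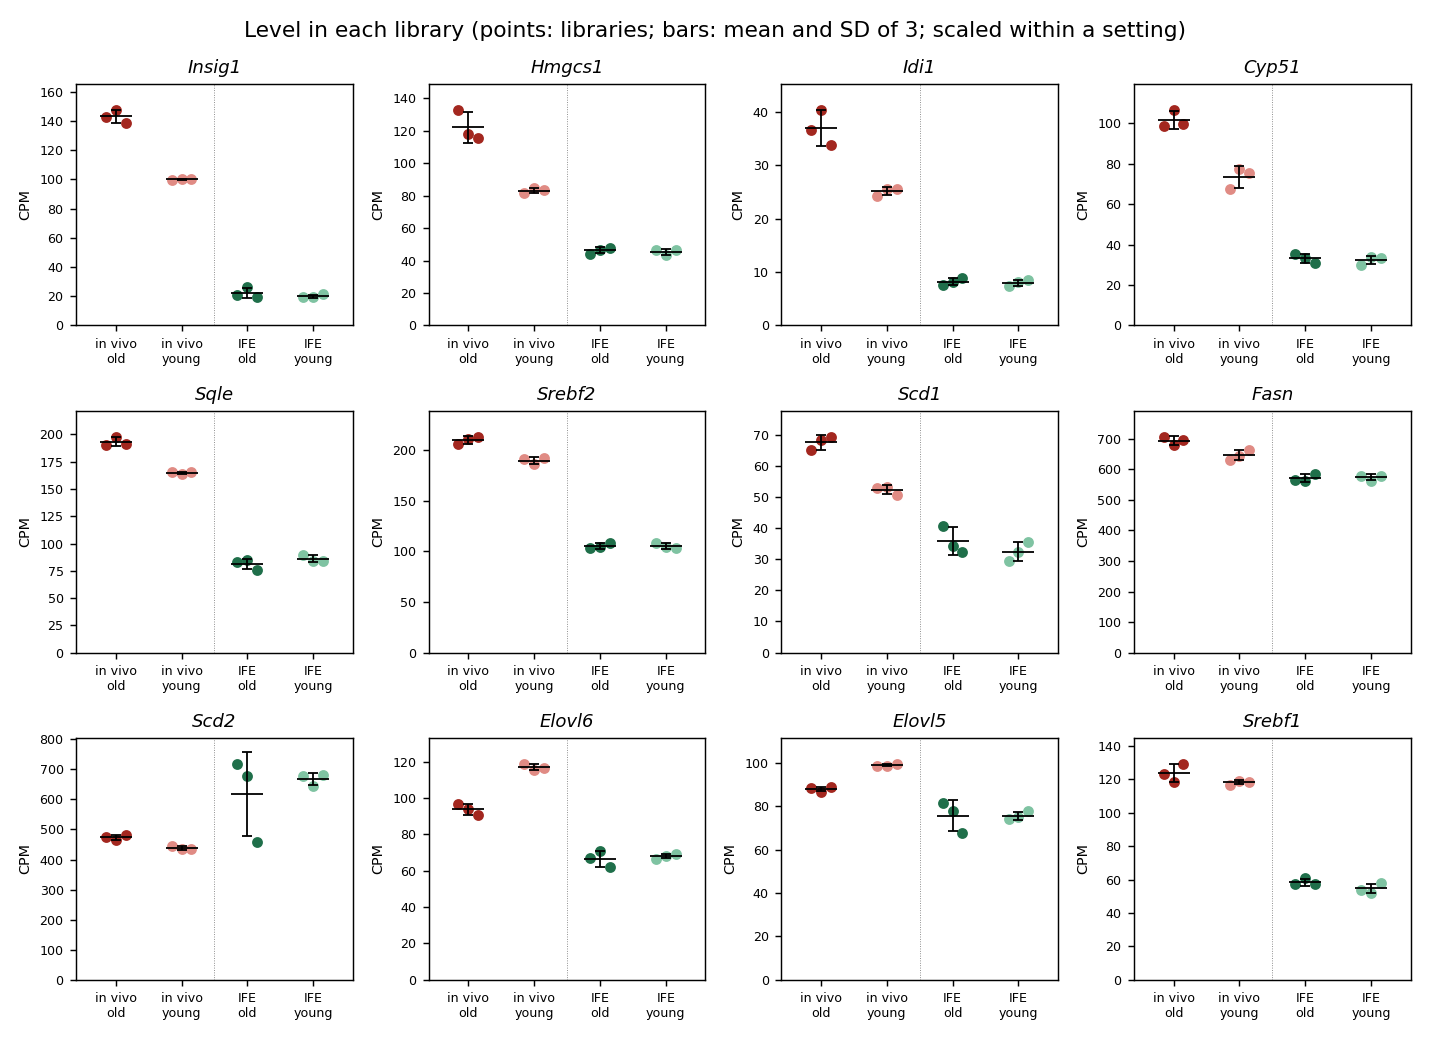
Level in CPM of 12 genes in each library, old left of young and in vivo left of culture, with libraries as points and the mean and SD of 3 as bars. Insig1 lies at 138.9 to 147.9 CPM in old mice and 99.69 to 100.4 CPM in young mice, and Elovl6 has the opposite order in vivo.

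The fatty acid branch was split in direction in vivo. Of its 12 genes 6 were higher in old mice, 2 were lower and 4 did not pass, against the same 19.6% and 20.4% of all genes. Tested against a fold of 1.2, 0 were higher and 0 lower, against 597 and 1256 of all 14096 genes. Its median log2 fold change was 0.08, against 0.36 in the sterol branch, and its summed level was 2086 to 2146 CPM in old mice and 1987 to 2029 CPM in young mice. Whether the branches differed from each other was not tested. Groups did not overlap in 5 genes with old above young and in 2 with old below, against 23.5% and 24.2% of all genes.

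The genes called higher make or desaturate the fatty acid chain. Acly, which releases acetyl-CoA from citrate, had 311.6, 295.8 and 298.1 CPM in old mice and 275.9, 271.6 and 274.1 CPM in young mice. Fasn, the fatty acid synthase, had 707.0, 679.7 and 696.7 CPM in old mice and 631.3, 642.8 and 663.3 CPM in young mice. In both genes the groups were apart but close, with log2 fold changes of 0.14 ± 0.03 for Acly and 0.10 ± 0.02 for Fasn (edgeR adjusted p = 3.83e-05 and 7.89e-05). Scd1, a desaturase that makes oleate, had 64.9, 68.41 and 69.32 CPM in old mice and 52.97, 53.18 and 50.61 CPM in young mice. Its log2 fold change of 0.37 ± 0.06 was the highest of the branch (edgeR adjusted p = 6.71e-08), and its groups did not overlap. Scd2, a second desaturase of this kind, had 474.2, 465.5 and 482.0 CPM in old mice and 444.7, 435.0 and 434.2 CPM in young mice. The groups for Scd2 were apart, with a log2 fold change of 0.11 ± 0.03 (edgeR adjusted p = 9.16e-05). Acaca, the carboxylase that makes malonyl-CoA, and Fads2, a desaturase of polyunsaturated chains, were called higher with log2 fold changes of 0.19 and 0.21 (edgeR adjusted p = 0.000907 and 0.00704). The groups of Fads2 overlapped, and its call was lost without old replicate 3 (adjusted p = 0.0989), without young replicate 2 (adjusted p = 0.118) and in limma on log2(FPKM + 0.1) (adjusted p = 0.107). The call for Acaca was also lost in limma on log2(FPKM + 0.1) (adjusted p = 0.0792).

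Both elongases of the branch were lower. Elovl6 (ENSMUSG00000041220, chromosome 3), which extends palmitate to stearate, had 96.65, 93.76 and 90.93 CPM in old mice and 118.8, 115.3 and 116.8 CPM in young mice. Elovl5, which extends polyunsaturated chains, had 88.31, 86.89 and 89.06 CPM in old mice and 98.86, 98.82 and 99.64 CPM in young mice. Neither gene showed any overlap between the groups, and the log2 fold changes were -0.32 ± 0.04 for Elovl6 and -0.17 ± 0.05 for Elovl5 (edgeR adjusted p = 1.9e-09 and 0.00146). Srebf1 had 123.4, 118.6 and 129.3 CPM in old mice and 116.9, 119.3 and 118.4 CPM in young mice. Its groups overlapped and it did not pass the test (log2 fold change 0.06 ± 0.04, edgeR adjusted p = 0.227). Acss2, which makes acetyl-CoA from acetate, had 20.4, 21.53 and 21.29 CPM in old mice and 24.04, 24.32 and 21.34 CPM in young mice. The groups of Acss2 overlapped and it did not pass (edgeR adjusted p = 0.26). It shares 22544 bases with Gss and 290 bases with Ggt7, both on the opposite strand. Ggt7 had 4.883 CPM in old mice and 1.52 CPM in young mice. Fads1, a desaturase, and Me1, the malic enzyme that supplies NADPH, did not pass, with log2 fold changes of -0.05 and 0.06.

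**Figure D3:**
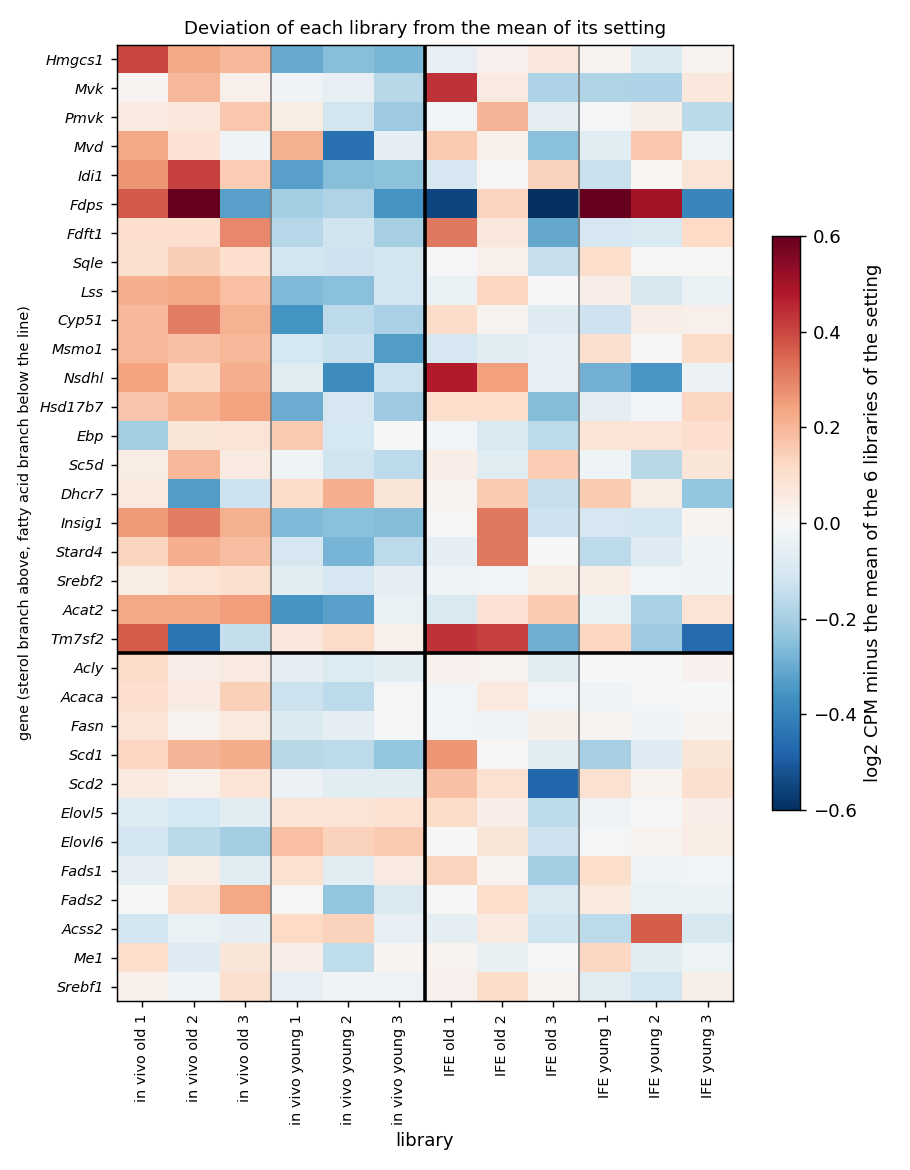
Deviation of each library from the mean of the 6 libraries of its setting, in log2 CPM, for 33 genes, with red above and blue below the mean. In vivo the median deviation of the sterol branch is 0.16 to 0.20 in the old libraries and -0.16 to -0.10 in the young ones, and in culture it is -0.07 to 0.06 with old IFE and -0.05 to 0.02 with young IFE.

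Levels were compared between genes by FPKM, which divides by gene length. The highest FPKM was that of Scd2, at 77.57 ± 1.37 in old mice and 71.97 ± 1.11 in young mice (SD, n = 3 each), followed by Fasn at 56.73 ± 1.23 FPKM in old mice and 52.97 ± 1.28 FPKM in young mice. Insig1 led the sterol branch, at 41.39 ± 1.3 FPKM in old mice and 29.04 ± 0.0343 FPKM in young mice. The lowest levels were those of Tm7sf2, at 0.7837 ± 0.227 FPKM in old mice and 0.8465 ± 0.0245 FPKM in young mice, and of Fdps, at 0.9114 ± 0.306 FPKM in old mice and 0.6244 ± 0.0404 FPKM in young mice.

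Genes around the 2 branches were described from lists of the same pathway, whose counts stand against 19.6% higher and 20.4% lower among all genes tested. Of 12 genes that escort, cut or degrade the SREBP system or bind beside it, 5 were higher and 4 lower in old mice. Mbtps1, the first protease that cuts SREBP, averaged 351.4 ± 9.59 CPM in old mice and 317.1 ± 9.91 CPM in young mice (SD, n = 3 each). Rnf145, a ligase of the same membrane, was lower, with 142.0 ± 6.62 CPM in old mice and 177.9 ± 4.59 CPM in young mice. Of 11 other sterol synthesis and uptake genes tested, 4 were higher and 2 lower. Npc2, a lysosomal sterol carrier, was lower, with 364.0 ± 7.85 CPM in old mice and 443.3 ± 3.81 CPM in young mice.

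Sterol efflux genes and targets of the liver X receptors showed the widest change of these lists, with 0 of 11 higher, 9 lower and a median log2 fold change of -2.20. Apoe, an apolipoprotein, averaged 68.42 ± 1.91 CPM in old mice and 487.4 ± 6.66 CPM in young mice (SD, n = 3 each), and Abca1, a sterol exporter, 7.724 ± 1.04 CPM in old mice and 35.28 ± 2.14 CPM in young mice. Smpdl3a, a phosphodiesterase and receptor target, averaged 1.799 ± 0.0741 CPM in old mice and 9.932 ± 0.441 CPM in young mice. The macrophage markers that could be tested moved the same way, with a median log2 fold change of -3.24, and macrophages are known to express these efflux genes. The part of those cells was not tested. Of 10 genes of sterol esterification and transport, 2 were higher and 4 lower. Soat1, which esterifies cholesterol, Lipa, the lysosomal lipase, and Gramd1b, a sterol transporter, had log2 fold changes of -0.51, -0.85 and -0.91.

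On the fatty acid side, 3 of 12 further synthesis and elongation genes were higher and 3 lower, close to the 19.6% and 20.4% of all genes. Tecr and Hacd2, which complete each elongation cycle, had log2 fold changes of 0.19 and 0.21. Mlxipl, a carbohydrate-responsive factor, averaged 0.479 ± 0.5 CPM in old mice and 1.987 ± 0.714 CPM in young mice. It was barely counted, and its SD in old mice exceeded its mean. Of 12 genes of acyl-CoA and glycerolipid synthesis 1 was higher and 4 were lower. Lpin1, a phosphatidate phosphatase, averaged 25.15 ± 1.4 CPM in old mice and 18.06 ± 1.17 CPM in young mice, whereas Acsl5, an acyl-CoA synthetase, and Dgat1, which makes triglyceride, had log2 fold changes of -0.22 and -0.35. Of 7 genes of NADPH supply 4 were higher and 1 was lower. Idh2 and Tkt had log2 fold changes of 0.27 and 0.18, and Taldo1 of -0.33.

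The second comparison asked the same of cultured cells kept in old or young IFE. In this setting edgeR called 11 of 13118 genes (0.0839%), 7 higher (0.0534%) and 4 lower (0.0305%). This count rested on single libraries: without old IFE replicate 3, 84 genes were higher and 99 lower, and without any other 1 library 1 to 7 were higher and 0 to 1 lower. No member of either branch was called in any of these fits. In the sterol branch 0 of 20 genes tested were called, and 2 had an unadjusted p under 0.05, against 929 of all 13118 genes. In the fatty acid branch 0 of 12 were called, and 0 had an unadjusted p under 0.05. DESeq2 and limma-voom also called 0 in both branches. All old libraries lay below all young ones in 2 sterol genes and above in 0, against 6.91% and 6.21% of all genes. In each of the 7 pathway lists 0 genes were called by edgeR, with 0 to 3 genes at an unadjusted p under 0.05, against the same 929 of 13118. The median log2 fold change was 0.05 in the sterol branch and -0.01 in the fatty acid branch. Summed levels of the sterol branch were 603.3 to 634.5 CPM with old IFE and 602.3 to 628.0 CPM with young IFE. For the fatty acid branch they were 1909 to 2217 CPM with old IFE and 2107 to 2176 CPM with young IFE.

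The genes of lowest p in culture were Msmo1, Nsdhl and Tm7sf2. Msmo1 had 89.59, 91.95 and 92.66 CPM with old IFE and 102.7, 95.95 and 103.7 CPM with young IFE. All old libraries were below all young ones, opposite in sign to the in vivo change, yet the edgeR adjusted p was 0.561. Nsdhl had 8.2, 7.0 and 5.695 CPM with old IFE and 4.824, 4.639 and 5.767 CPM with young IFE, with overlapping groups and an edgeR adjusted p of 0.61. Tm7sf2 had 4.347, 4.274 and 2.624 CPM with old IFE and 3.52, 2.767 and 2.332 CPM with young IFE, and its groups overlapped too (edgeR adjusted p = 0.825).

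The genes that led in vivo had close levels in culture. Hmgcs1 had 44.3, 46.64 and 47.93 CPM with old IFE and 46.41, 43.13 and 46.45 CPM with young IFE, a log2 fold change of 0.03 ± 0.07 (SE). Insig1 had 21.19, 26.23 and 19.32 CPM with old IFE and 19.62, 19.45 and 21.29 CPM with young IFE, a log2 fold change of 0.14 ± 0.12. Both genes overlapped between the groups, and Insig1 was raised in old replicate 2 alone. Scd2 had 718.2, 676.8 and 458.2 CPM with old IFE and 677.1, 644.5 and 680.7 CPM with young IFE. Old replicate 3 stood well below the other 5 libraries for Scd2, and without it the log2 fold change was 0.06 instead of -0.11. Without the same library the median of the fatty acid branch turned to 0.0451. Fasn had 565.8, 562.9 and 586.3 CPM with old IFE and 579.6, 563.3 and 579.1 CPM with young IFE, and Srebf1 had 57.51, 60.93 and 57.08 CPM with old IFE and 53.78, 52.25 and 57.98 CPM with young IFE. Both overlapped between the groups.

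The third comparison asked whether the old-over-young change itself differed between the settings, with the in vivo log2 fold change minus the IFE one as the contrast across 14318 genes. It was called positive for 9.1% and negative for 8.37% of all genes by edgeR. In the sterol branch 7 of 21 genes were called positive and 0 negative. They were Hmgcs1, Idi1, Sqle, Lss, Cyp51, Msmo1 and Insig1, with differences from 0.31 for Sqle to 0.53 for Idi1. Msmo1 had the lowest p, with a difference of 0.52 ± 0.08 (SE, edgeR adjusted p = 1.63e-05), followed by Hmgcs1 at 0.52 ± 0.09 (edgeR adjusted p = 3.62e-05). The call for Idi1 was lost without old IFE replicate 1, young IFE replicate 3, in vivo old replicate 2 or in vivo young replicate 1, with adjusted p up to 0.0855. The call for Lss was lost without in vivo old replicate 2 or in vivo young replicate 1 or 2, with adjusted p up to 0.0704. Tested against a fold of 1.2, 2 sterol genes were called positive and 0 fatty acid genes were called. Of all 14318 genes 217 were positive and 394 negative in that test. The median difference in the sterol branch was 0.26, against 0.00223 for all genes. The other 14 sterol genes did not pass, so a difference between the settings was not shown for them, among them Srebf2 at 0.14 ± 0.06 (edgeR adjusted p = 0.105) and Acat2 at 0.38 ± 0.15 (edgeR adjusted p = 0.0862).

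In the fatty acid branch the difference was called positive for Acly and negative for Elovl6. These are 1 of 12 genes in each direction, close to the 9.1% and 8.37% of all genes. Elovl6 had a difference of -0.29 ± 0.08 (edgeR adjusted p = 0.00758). Acly had 0.15 ± 0.05 with an edgeR adjusted p of 0.0486, and its call was lost under DESeq2 (adjusted p = 0.0642), with relative log expression scaling (adjusted p = 0.0588), without the filter on low counts (adjusted p = 0.123) and in 11 of 12 fits that left out 1 library, with adjusted p up to 0.209. Fasn and Scd1, both higher in old mice in vivo, did not pass the test of the difference, at 0.11 ± 0.05 for Fasn and 0.22 ± 0.11 for Scd1 (edgeR adjusted p = 0.118 and 0.181).

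Levels in vivo and in culture were set side by side with 1 scaling over the 12 libraries. The settings differ in sorting, medium and serum and their tables were made separately, so no test was made. In the sterol branch 16 of 21 genes had all in vivo libraries above all culture libraries and 0 had them below, against 32.2% and 30.2% of all genes. The median ratio in vivo over culture was 2.61 for old and 2.02 for young samples, against 1.01 for all genes in either age. Insig1 stood 7.06-fold higher in old mice than with old IFE and 5.47-fold higher in young mice than with young IFE, and Hsd17b7 stood 5.65-fold higher for old and 4.19-fold higher for young samples. Msmo1 overlapped between the settings, with a ratio of 0.995 for old and 0.696 for young samples. In the fatty acid branch 7 of 12 genes were above in vivo, 1 was below and 4 overlapped, with median ratios of 1.22 for old and 1.14 for young samples. Acaca was the 1 gene below, at 0.539 of the culture level for old and 0.479 for young samples. Srebf1 was 2.32-fold higher in old mice than with old IFE and 2.38-fold higher in young mice than with young IFE.

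**Figure D4:**
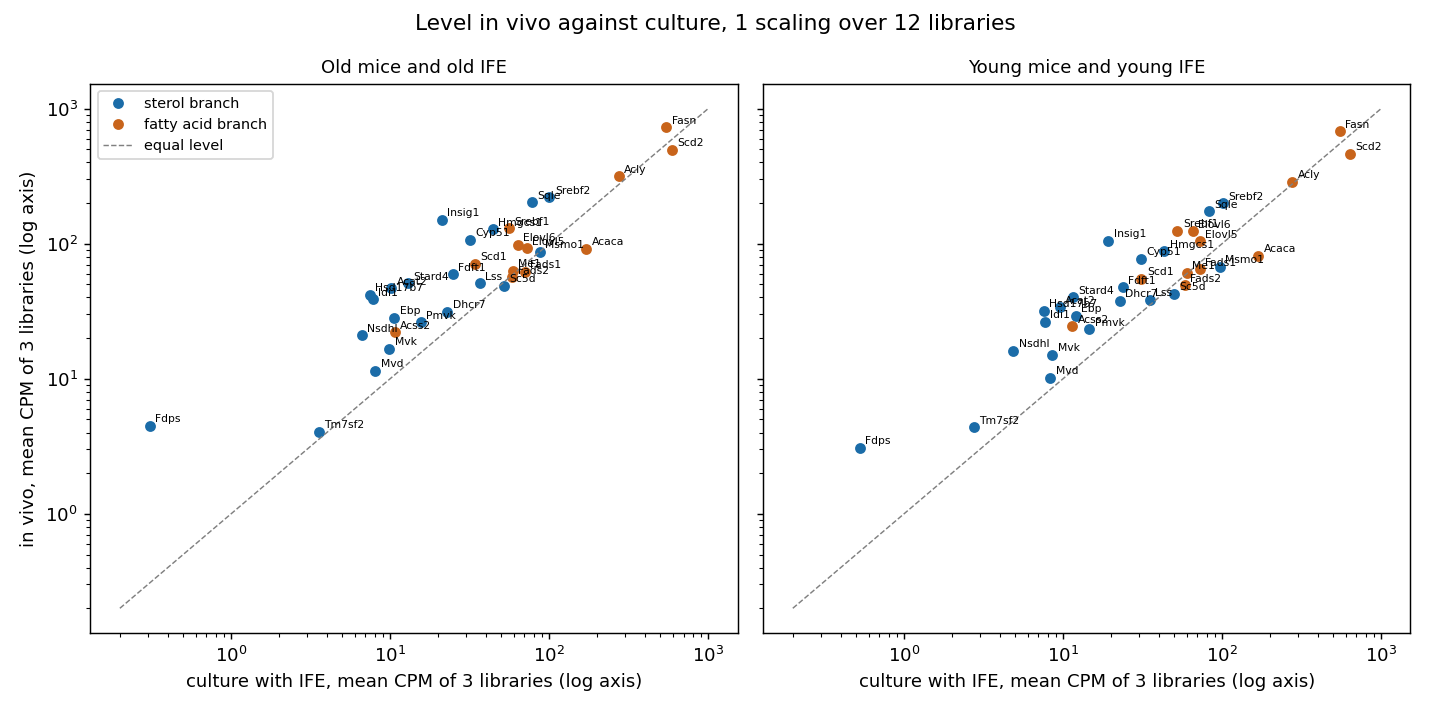
Mean CPM of 3 libraries in vivo against culture for old (left) and young (right) samples, on log axes, with the dashed line at equal level. Most sterol genes lie above the line, with a median ratio of 2.61 for old and 2.02 for young samples, and the fatty acid genes lie closer to it.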

How the data were processed

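Poly-A RNA was sequenced, per the labels' protocols, which name directional and non-directional libraries without saying which were made. The authors deposited raw counts, size-factor normalized signal and FPKM in 1 table each per setting. HISAT2 2.0.5, featureCounts 1.5.0-p3, DESeq2 and the human build GRCh38 appear in the submitters' processing notes, although the genes are mouse genes. Counts of in vivo young replicate 3 were not among the count columns used here. They were recovered by undoing the size factor of the deposited signal, which left whole reads, within 0.001, for 100.0% of values. The planned fit named deposited counts, so this is a change of plan.

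Old and young libraries were compared within a setting with edgeR 4.0.16 in R 4.3.3 (TMM scaling, default filter on low counts, robust quasi-likelihood F-test), with Benjamini-Hochberg adjustment over all genes tested and a threshold of 0.05. The difference between settings was a contrast over 12 libraries. The SE was taken as the log2 fold change over the root of F. The fitting was also run on simulated counts. FPKM as deposited by the authors served for levels between genes and for limma 3.58.1 with pseudocounts of 0.1 and 1. Other alternatives were DESeq2 1.42.0, limma-voom, relative log expression scaling, no filter, a test against a fold of 1.2, a replicate block and leaving out each library. The members, the lists and the rule for naming genes were chosen with earlier results of these data known. The rule gives values per library for 9 genes in any case, for the 6 sterol and 4 fatty acid genes of lowest p in vivo, the 3 of lowest p in culture, the 5 of lowest p in the difference, and genes called against their branch. Up to 3 called genes were named from each pathway list. A few genes named by it are not reported here.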

Additional observations from a re-analysis of the deposited data

Results flagged for a closer look

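For 9 genes the old-over-young change differed between the settings by the contrast itself, given as the in vivo log2 fold change minus the IFE one (edgeR, adjusted p under 0.05). Among all 14318 genes tested 9.1% were called positive and 8.37% negative. In the sterol branch the difference was 0.52 for Hmgcs1, 0.53 for Idi1, 0.31 for Sqle, 0.35 for Lss, 0.43 for Cyp51, 0.52 for Msmo1 and 0.38 for Insig1. In the fatty acid branch it was 0.15 for Acly and -0.29 for Elovl6, so 1 of 12 genes in each direction, close to the share of all genes. Macrophage markers summed to 94.24 to 97.68 CPM in old mice and 826.9 to 842.8 CPM in young mice, and to 4.898 to 5.821 CPM with old IFE and 4.111 to 5.29 CPM with young IFE. Of the 10 carcinoma markers, 7 were called positive and 1 negative in the same contrast. Their median difference was 0.54, against 0.255 in the sterol branch. The part of macrophages or of the share of carcinoma cells in these differences was not tested.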

How the results depend on the processing

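In vivo, the 33 genes gave 495 values under alternatives, of which 454 kept direction and side of the threshold, 36 lost a call, 2 gained one and 3 turned in sign. Against a fold of 1.2 the sterol branch kept 7 higher and 0 lower, and the fatty acid branch 0 higher and 0 lower. Of all 14096 genes 597 were higher and 1256 lower in that test. With FPKM and limma the sterol branch had 0 lower in all 3 fits, the fatty acid branch had 3 higher with a pseudocount of 0.1 and no filter, and the sterol median was 0.294 with a pseudocount of 1. Leaving out 1 library gave 13 to 15 sterol genes higher and 0 to 1 lower (0 without old or young replicate 2), sterol medians of 0.31 to 0.366, 5 to 6 fatty acid genes higher and medians of 0.0738 to 0.12. The log2 fold change of Ebp ran from -0.0881 to 0.0599 and Tm7sf2 from -0.358 to 0.0565.

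In culture no alternative run gave a call in either branch. Leaving out 1 library gave fatty acid medians of -0.0375 to 0.0451, and log2 fold changes of -0.179 to 0.0833 for Acss2, -0.024 to 0.00569 for Fasn, -0.0085 to 0.0564 for Hmgcs1, -0.238 to 0.0644 for Scd2 and -0.0201 to 0.0231 for Srebf2. Srebf2 was also -0.000775 with DESeq2, -0.000733 with relative log expression scaling, -0.00154 with FPKM and a pseudocount of 0.1, with or without the filter, and -0.00145 with a pseudocount of 1.

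For the difference between settings, a fold of 1.2 left 2 sterol genes higher and 0 fatty acid genes in either direction. Of all 14318 genes it left 217 higher and 394 lower. DESeq2, relative log expression scaling and no filter left 0 fatty acid genes higher. Leaving out 1 library gave 5 to 9 sterol genes higher, a sterol median of 0.179 to 0.305, 0 to 2 fatty acid genes higher and 1 to 2 lower.

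No pairing by replicate number was detected: deviations of same-numbered libraries correlated at -0.003 to 0.004 in vivo and -0.033 to 0.041 in culture. These correlations run over all genes tested and include counting noise, so they cannot show that pairing was absent. With a replicate block the counts in vivo stayed at 14 higher and 1 lower in the sterol branch and 6 higher and 2 lower in the fatty acid branch, and in the difference the fatty acid branch had 0 higher.

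On the given strand alone CCAAT was found for 6408 genes in all, 10 members, 7 sterol and 3 fatty acid genes, the GC box for 3 fatty acid genes and the sterol regulatory element for 169 genes in all. The cause of these shifts was not tested. Counting precision limits Fdps and Tm7sf2, which lay under 6 CPM. It also limits Mlxipl and, in old mice, Smpdl3a, genes of the pathway lists with lower means.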
